A study of Rorippa islandica and Rorippa pyrenaica with 24 samples.

Results

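The genes described here are those whose response to the second day of submergence differed between 2 *Rorippa* species, in RNA-seq counts of young leaves. The difference, the species by submergence interaction at 48 h, is the change from air to water in *R. islandica* minus the same change in *R. stylosa*, on the log2 scale. Its estimate compares 12 of the 24 libraries of the series, all at 48 h. These are 3 each of *R. islandica* controls, submerged *R. islandica*, *R. stylosa* controls and submerged *R. stylosa*. Transcripts were joined by gene with isoforms summed, which gave 30646 genes, of which 22226 passed the filter on low counts and were tested.

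*R. islandica* is a diploid, selfing annual raised from seed, and *R. stylosa* is a diploid, self-incompatible perennial. Plantlets of *R. stylosa* came from vegetative propagation, done anew for every replicate, and grew less evenly, as the study states. Plants were grown on soil in short days, submerged in tap water under the day and night rhythm, or kept in empty boxes as controls. The other 12 libraries, harvested after 24 h of the same treatments, enter no 48 h contrast and were used as a repeat. However, all 24 libraries were fitted together and shared the filter, the scaling and the estimate of the spread. The study calls *R. islandica* tolerant and *R. stylosa* sensitive to submergence.

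Under water, gases move slowly, so oxygen and carbon dioxide run short in a leaf while ethylene is trapped in it. Plants respond to low oxygen with fermentation and with transcription factors of the ethylene response factor family, to ethylene with growth and leaf angle changes, and to short sugar supply with catabolism and a slowing of growth. A response that differs between species can be an induction or a repression that is present in one and not in the other, a difference in size, or a change in opposite directions. The deposited tables give gene identifiers, orthogroups (sets of genes descended from one ancestral gene) and coding lengths but pair no identifier with a gene name, so genes are described here by these features and by their response. For the same reason leaf markers could not be looked up. Since whole leaves were measured, fewer cells of a type and less RNA per cell cannot be told apart.

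The 48 h libraries held 24649716 to 39205399 counts, and the submerged *R. stylosa* libraries had the lowest median of the groups, 27419339. In replicate 1 of the *R. stylosa* 48 h controls, 1 gene took 5.12% of the counts, against 0.854 to 2.01% in the other 48 h libraries. That gene had no interaction called (log2 estimate -0.00276). Reads of both species were assigned to the *R. islandica* transcripts. A loss of *R. stylosa* reads by the same factor in both treatments cancels in the interaction but not in a direct comparison of the species, and reads shared with a related gene that responds differently do not cancel in either. The part of read assignment in the interactions was not tested, apart from sums over orthogroups. Species and mode of propagation cannot be told apart.

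On the second day, 722 genes had a higher response in *R. islandica* (3.25% of the genes tested) and 1115 a lower one (5.02%), together 8.27%. These calls are of edgeR's quasi-likelihood test against a log2 difference of 1, with p-values adjusted by the Benjamini-Hochberg method over all tested genes and a limit of 0.05. A higher response means a stronger rise, a weaker fall or a rise against a fall, and a lower response the reverse. Against a difference of 0, 4179 responses were higher (18.8%) and 4216 lower (19.0%), so the directions were nearly balanced when differences of any size were counted. The estimate over all tested genes had a median of -0.01 and a standard deviation of 1.53. Among the called genes the median difference was 2.48 in the higher and -2.59 in the lower direction, and 154 and 230 genes differed by more than 4 log2 units. The largest differences were 17.6 and 17.3 in size. However, 1148 of the 1837 called genes averaged 0.5 CPM or more in every 48 h group, and the others had a group below that level. Among genes above it and called whichever 48 h library was left out, the extremes were 6.74 and -8.72. Of the 1837 calls, 1241 (67.6%) were also made whichever of the 12 libraries was left out, 500 higher and 741 lower. Without the control library with the dominant gene, 681 higher and 1004 lower responses were called. DESeq2, run with the same threshold, called 484 and 772, and 1224 of its calls were among the 1837, in the same direction.

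**Figure D1:**
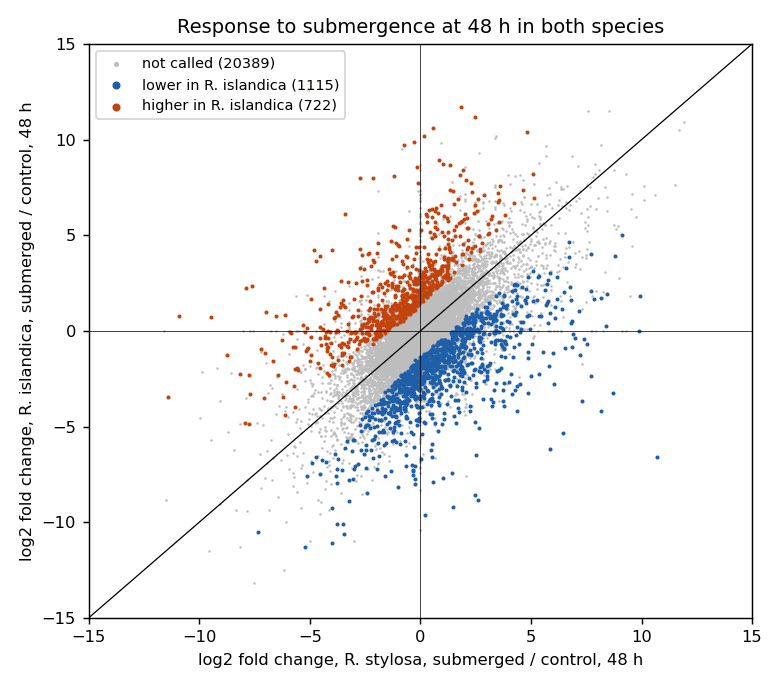
Log2 fold change of submerged over control leaves at 48 h in *R. stylosa* (horizontal axis) and *R. islandica* (vertical axis) for the 22226 tested genes, each 1 point. Genes with a higher response in *R. islandica* (722, red) lie above the diagonal of equal response and genes with a lower one (1115, blue) below it. Grey points were not called.

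How a called gene responded in each species was read from the submergence effects themselves, tested in the same model. At 48 h, 11.5% of the tested genes were upregulated and 12.7% downregulated in *R. islandica*, and 9.69% and 8.69% in *R. stylosa*. Among the 722 higher responses, *R. islandica* was called up in 401 (55.5%) and *R. stylosa* called down in 237 (32.8%). Among the 1115 lower responses, *R. islandica* was called down in 667 (59.8%) and *R. stylosa* called up in 369 (33.1%). On both sides of the interaction a called change was thus more frequent in *R. islandica*, as it also was among all tested genes (24.2% against 18.4%). Whether a change is called also depends on depth and on the spread between libraries. The interaction and the submergence effects use the same libraries, so the classes are descriptions and not a second test.

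**Figure D2:**
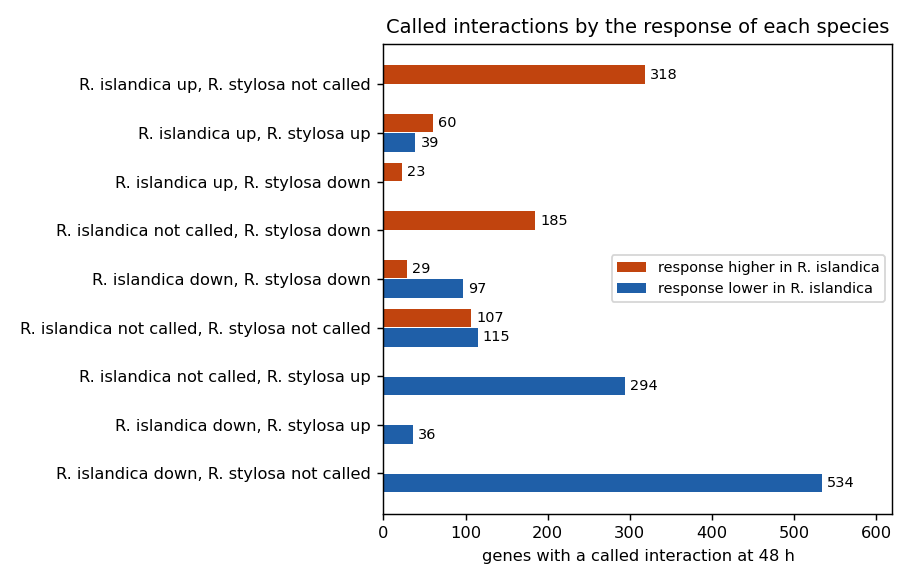
Number of genes with a called interaction at 48 h (horizontal axis, from 0) by the called response of each species, separately for higher (red) and lower (blue) responses in *R. islandica*. The most frequent classes were repression in *R. islandica* alone (534 genes) and induction in *R. islandica* alone (318).

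The largest class, of 534 genes, was downregulated in *R. islandica* and not called in *R. stylosa*, with median log2 fold changes of -2.72 and -0.09. Its median level in single libraries was 3.07 to 3.36 log2 CPM (counts scaled to a common library size) in *R. islandica* controls and 0.19 to 0.48 after submergence. In *R. stylosa* it was 3.07 to 3.20 in controls and 2.81 to 2.92 after submergence. The species were therefore at a similar median level in air and apart under water. These 534 genes were 31.6% of all 1691 genes downregulated in *R. islandica* only. For the other genes of that group no difference between the species was called at this threshold, so a call in one species alone was in most cases not a called difference.

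The gene with the lowest estimate among genes called in every leave-one-out fit, averaging 0.5 CPM or more in every 48 h group, belonged to this class. Roisl.0021s0238, 1887 bases of coding sequence long, was at 208, 204 and 210 CPM in the 3 *R. islandica* 48 h controls and at 0.971, 0.786 and 1.22 CPM after submergence. In *R. stylosa* it was at 0.673, 1.25 and 1.13 CPM in controls and at 3.43, 1.36 and 1.43 CPM under water. The submerged *R. islandica* leaves had thus come down to the low level that *R. stylosa* had in air. Unlike the medians of its class, this gene differed widely between the species in air. With 22, 43 and 39 counts in *R. stylosa* controls, the gene left little room there for a fall like that in *R. islandica*. Its interaction of -8.72 (SE 0.43, adjusted p = 3.15e-10 in edgeR's quasi-likelihood test) rested on a log2 fold change of -7.69 in *R. islandica* (SE 0.30) against 1.03 (SE 0.32, not called) in *R. stylosa*. In the 24 h libraries the interaction was -10.7 (adjusted p = 2.12e-11, same test in edgeR). The orthogroup of Roisl.0021s0238 holds 1 more gene, of 1890 bases, and 45.8% of the values of either were not whole. The tool that assigned the reads, kallisto, divides a read among the transcripts it matches. This partner was at 2.17, 6.63 and 5.96 CPM in *R. islandica* controls and at 0, 0 and 0.144 CPM after submergence. Its *R. stylosa* libraries were at 4.10, 7.04 and 4.94 CPM in controls and at 0.196, 0.117 and 0.0876 CPM under water. The partner fell in both species, and its own interaction was not called (log2 -1.10). With both genes summed, the interaction was -6.15 (SE 0.41, adjusted p = 1.19e-08 in edgeR), smaller than for Roisl.0021s0238 alone.

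Genes with many counts were part of this class too. The called genes with a lower response took 7.54 to 8.17% of all counts in *R. islandica* 48 h controls and 2.01 to 2.25% after submergence, while in *R. stylosa* they took 4.59 to 5.35% and 4.84 to 5.21%. A single gene of 804 bases held 15.1% of the 48 h counts of the 1115 genes. It was at 16500, 20100 and 17900 CPM in *R. islandica* controls and at 1420, 1280 and 1500 CPM under water. In *R. stylosa* it was at 6730, 6810 and 7350 CPM in controls and at 4210, 4490 and 3610 CPM under water. The groups of neither species overlapped, but only the fall in *R. islandica* was called, with a log2 fold change of -3.70 against -0.76 (interaction -2.94, SE 0.20, adjusted p = 1.02e-07 in edgeR). The second by counts, of 1005 bases and alone in its orthogroup, went from 5950, 6680 and 7040 CPM to 366, 273 and 376 CPM in *R. islandica*. The *R. stylosa* libraries held it at 8180, 11100 and 11300 CPM in air and at 4970, 7300 and 4400 CPM under water, which was not called (interaction -3.40, SE 0.33).

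The 804-base gene belongs to an orthogroup of 4 genes of nearly equal length, of which 3 had a lower response in *R. islandica*. The fourth, also of 804 bases, was the most abundant, with a mean of 21500 CPM in *R. islandica* controls and 8610 CPM under water, and 9000 and 4930 CPM in *R. stylosa*. All of its values were whole, and its interaction was not called (log2 -0.45). The other called members had interactions of -3.96 and -2.55, and 58.3% and 62.5% of their values were not whole. For the called 804-base gene described first, 20.8% of the values were not whole. Summed over the 4 genes, the response stayed lower in *R. islandica*, by a log2 difference of 1.44 (SE 0.17, adjusted p = 0.0291 in edgeR). The interaction of this orthogroup was thus smaller than that of its 3 called members.

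Repression in both species that was deeper in *R. islandica* was found in 97 genes, with median log2 fold changes of -5.02 and -2.30, and in 56 with DESeq2. The 97 were 8.83% of the 1099 genes downregulated in both species, whereas 29 of the 1099 (2.64%) were called as falling further in *R. stylosa*. Over all 1099 genes the fall was larger in *R. islandica* for 67.2%, with medians of -2.89 and -2.36. The median level of the 97 genes started alike in air, at 4.40 to 4.54 log2 CPM in *R. islandica* and 4.48 to 4.65 in *R. stylosa*, and ended at -1.03 to -0.51 and 1.92 to 2.69. A gene of 636 bases had the lowest estimate of this class within the leave-one-out and 0.5 CPM limits given above. It went from 588, 371 and 293 CPM to 1.35, 2.09 and 6.33 CPM in *R. islandica*. The fall in *R. stylosa* was from 273, 222 and 285 CPM to 18.2, 55.6 and 35.1 CPM. Its interaction of -4.12 (SE 0.73) was -5.09 without replicate 3 of the submerged *R. islandica* leaves. Of the 29 genes called as falling less in *R. islandica*, 1 of 1371 bases was there at 182, 243 and 291 CPM in controls and at 60.2, 41.9 and 43.6 CPM under water. It fell in *R. stylosa* from 341, 414 and 300 CPM to 4.48, 2.37 and 4.97 CPM (interaction 4.17, SE 0.36).

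Induction in *R. islandica* with no call in *R. stylosa* was the main form of a higher response, in 318 genes with median log2 fold changes of 2.74 and 0.09. Their median level rose from 1.17 to 1.27 log2 CPM in *R. islandica* controls to 4.00 to 4.08 after submergence. In *R. stylosa* it was 2.58 to 2.74 in controls and 2.60 to 2.76 under water. The median of *R. islandica* was therefore below that of *R. stylosa* in air and above it under water. They were 24.5% of the 1299 genes upregulated in *R. islandica* only. Roisl.0046s1242 has a coding length of 240 bases. Among genes called in every leave-one-out fit and averaging 0.5 CPM or more in every 48 h group, it had the highest estimate. It was at 0.398, 1.28 and 1.02 CPM in *R. islandica* controls and at 35.6, 46.8 and 41.4 CPM after submergence. In *R. stylosa* it was at 9, 9.83 and 12.4 CPM in controls and at 2.94, 4.94 and 5.14 CPM under water. The control and submerged libraries overlapped in neither species, but only the rise in *R. islandica* was called, with a log2 fold change of 5.48 (SE 0.46) against -1.26 (SE 0.38). The interaction was 6.74 (SE 0.59, adjusted p = 2.76e-07 in edgeR) and 4.63 at 24 h (adjusted p = 3.4e-05 in edgeR). Roisl.0046s1242 shares an orthogroup with 3 short genes that held 1 count each over all libraries.

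A rise in both species that was steeper in *R. islandica* was called for 60 genes, and a rise steeper in *R. stylosa* for 39, which are 4.90% and 3.18% of the 1225 genes upregulated in both. DESeq2 called 31 in place of the 60. Among all 1225, the medians were 2.69 in *R. islandica* and 2.57 in *R. stylosa*, and 53.7% rose more in *R. islandica*. The 60 genes had median log2 fold changes of 5.50 and 2.32. Their median level was between -0.02 and 0.27 log2 CPM in *R. islandica* controls and between 2.08 and 2.42 in those of *R. stylosa*, and it reached 5.59 to 5.77 and 4.32 to 4.72 under water. A gene of 777 bases showed the largest estimate among them within the leave-one-out and 0.5 CPM limits. It was at 1.30, 1.74 and 2.62 CPM in *R. islandica* controls and at 524, 464 and 352 CPM after submergence. *R. stylosa* rose from 3.76, 5.85 and 3.76 CPM to 19.8, 19.3 and 17.3 CPM (interaction 5.80, SE 0.35, adjusted p = 4.11e-09 in edgeR). The 39 genes steeper in *R. stylosa* were the mirror image in level, at 2.61 to 2.74 log2 CPM in *R. islandica* controls and -0.72 to -0.65 in *R. stylosa* controls. Within the same limits, a gene of 1110 bases had the lowest estimate among them. It differed from that pattern in that it started alike. It rose from 1.70, 1.49 and 1.40 CPM to 9.61, 10.2 and 9.04 CPM in *R. islandica*. *R. stylosa* rose from 1.41, 2.27 and 1.59 CPM to 91.2, 104 and 94.1 CPM (interaction -3.12, SE 0.35).

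Responses seen in *R. stylosa* and not called in *R. islandica* formed the second largest class on each side. In 294 genes *R. stylosa* rose, with a median log2 fold change of 2.74 against -0.11, and in 185 it fell, with -2.53 against 0.12. The 294 genes were at a median of -0.28 to 0.04 log2 CPM in *R. stylosa* controls and 2.49 to 2.78 after submergence, against 1.74 to 1.83 and 1.51 to 1.87 in *R. islandica*. A gene of 897 bases was at 2.60, 6.87 and 4.71 CPM in *R. stylosa* controls and at 101, 150 and 222 CPM under water. In *R. islandica* it stood at 40.2, 44.9 and 50.2 CPM in controls and at 20.2, 32.3 and 32.4 CPM under water (interaction -5.73, SE 0.65). Thus *R. stylosa* crossed from below to above the level of *R. islandica*. Of the genes that fell in *R. stylosa*, 1 of 495 bases went from 20.6, 72.1 and 51.9 CPM to 3.43, 0.545 and 2.02 CPM. The same gene was at 224, 324 and 201 CPM in *R. islandica* controls and at 560, 684 and 439 CPM under water, a log2 difference of 1.17 that was not called. Its interaction was 5.73 (SE 0.86), and 6.33 without replicate 1 of the submerged *R. stylosa* leaves. The gene with the most counts among those with a higher response, of 1041 bases, also belonged here. It was at 2980, 2750 and 2870 CPM in *R. islandica* controls and at 3970, 3980 and 3650 CPM under water. *R. stylosa* fell from 1750, 1720 and 1860 CPM to 433, 519 and 405 CPM (interaction 2.40, SE 0.15, adjusted p = 1.35e-07 in edgeR). All genes with a higher response together took 2.35 to 2.43% of the counts in *R. islandica* controls and 6.60 to 7.11% under water, and 3.33 to 4.05% and 2.60 to 3.23% in *R. stylosa*.

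A further group had a called interaction although neither species' own change was called, 107 genes with a higher (14.8%) and 115 with a lower response (10.3%). The median log2 fold changes were 0.97 in *R. islandica* and -0.96 in *R. stylosa* for the 107, and -1.08 and 1.01 for the 115, so that moderate changes in opposite directions added up. A gene of 579 bases among the 107 was at 13.9, 16.1 and 8.8 CPM in *R. islandica* controls and at 33.6, 32.7 and 30.1 CPM under water. The *R. stylosa* libraries were at 6.39, 7.71 and 11.8 CPM in controls and at 3.82, 3.7 and 1.78 CPM under water. The groups overlapped in neither species, and the interaction was 2.80 (SE 0.48, adjusted p = 0.00302 in edgeR).

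In 59 genes the calls of the species had opposite signs, a count on which the tests differed, since DESeq2 called 13 in place of 23 in one direction and 17 in place of 36 in the other. With edgeR, *R. islandica* rose and *R. stylosa* fell in 23, with median log2 fold changes of 2.56 and -2.64, and the reverse held in 36, with -2.31 and 2.30. At the 24 h harvest the effects again had opposite signs in all 23 and in 35 of the 36, against 24.8% of all tested genes. The 23 genes were at a median of -0.53 to 0.32 log2 CPM in *R. islandica* controls and 2.36 to 2.89 in *R. stylosa* controls. Under water they were at 2.45 to 2.71 and 0.14 to 0.92. The order of these 48 h medians was thus reversed, which choosing genes by opposite calls in the same libraries favours. In the 24 h libraries, the median log2 difference of *R. islandica* minus *R. stylosa* for the 23 was -3.2 in air and 0.94 under water. Of the 23, 10 were called higher and 4 lower in *R. islandica* after 24 h under water. For the 36 genes the 48 h medians were 1.74 to 1.88 and 0.19 to 0.49 in air and -0.53 to -0.11 and 2.13 to 2.65 under water. Their median difference at 24 h was 2.14 in air and -2.06 under water.

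Roisl.0189s0126, of 2283 bases, is alone in its orthogroup. It had the largest estimate of the first group within the leave-one-out and 0.5 CPM limits given above. It was at 1.19, 4.37 and 3.19 CPM in *R. islandica* controls and at 48.7, 29.8 and 29.0 CPM after submergence. *R. stylosa* had it at 30.6, 22.0 and 26.0 CPM in controls and at 7.85, 5.41 and 5.20 CPM under water. The high groups of the 2 species were at a similar level, in water for one and in air for the other. Log2 fold changes were 3.59 (SE 0.37) and -2.09 (SE 0.34), and the interaction was 5.68 (SE 0.50, adjusted p = 3.82e-07 in edgeR). At 24 h it was 5.08 (adjusted p = 3.06e-06 in edgeR).

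Roisl.0034s0171, of 1119 bases and also a single-gene orthogroup, had the lowest estimate of the second group within the same limits. It was at 48.6, 24.7 and 49.0 CPM in *R. islandica* controls and at 3.64, 6.34 and 6.71 CPM after submergence. In *R. stylosa* it was at 7.43, 7.27 and 4.68 CPM in controls and at 190, 88.2 and 126 CPM under water. Neither species had overlapping groups, and the interaction was -7.24 (SE 0.58, adjusted p = 7.54e-08 in edgeR), with log2 fold changes of -2.86 (SE 0.40) and 4.38 (SE 0.42). At 24 h the log2 fold change in *R. islandica* was -0.60 (SE 0.36, not called). The rise in *R. stylosa* was already 4.36 at 24 h, and the interaction was then -4.97 (adjusted p = 9.53e-06 in edgeR). The change of the interaction between the harvests, -2.27 (SE 0.75), was not called.

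**Figure D3:**
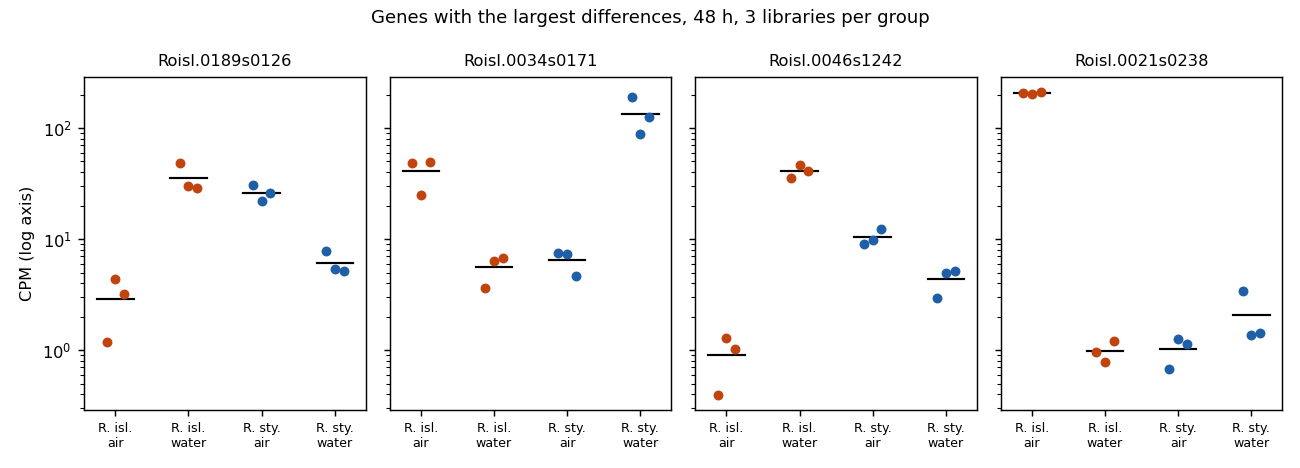
CPM (log axis) of Roisl.0189s0126, Roisl.0034s0171, Roisl.0046s1242 and Roisl.0021s0238 in the 12 libraries of 48 h, 1 point a library, in air and in water, for *R. islandica* (red) and *R. stylosa* (blue), with the mean of each group as a bar. In Roisl.0189s0126 and Roisl.0034s0171 the species moved in opposite directions, and in Roisl.0021s0238 only the *R. islandica* controls, at 204 to 210 CPM, stood apart.

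In all, 89 of the 1837 called genes had a 48 h group with 0 counts in all 3 libraries, and for these the fold given is the least it could be if the 3 libraries together had held 3 counts. None of the called genes was at 0 throughout either species. In *R. islandica*, 22 genes with a higher response had 0 counts in controls. The highest bound was for a gene of 1026 bases with 604, 953 and 745 counts under water, at least 684-fold higher than in air, or 421-fold without control replicate 2. In *R. stylosa* that gene had 12 counts in controls and 0 after submergence. Another 31 genes with a lower response had 0 counts in submerged *R. islandica*. Among these, a gene of 624 bases had 250, 289 and 225 counts in controls, at least 286-fold more than under water, or 175-fold without submerged replicate 3, while in *R. stylosa* it went from 378 to 21 counts over 3 libraries. Its interaction was not called without replicate 3 of the submerged *R. stylosa* leaves. In *R. stylosa*, 26 genes were at 0 in controls and 13 at 0 after submergence. The gene of the 26 with the most counts under water, of 705 bases, had 542 counts in replicate 1 and 0 in both others. Its rise in *R. stylosa* was thus seen in 1 library, and without that library its interaction was not called. It had 7711 counts in *R. islandica* controls and 95 after submergence. Floors and bounds cover counting error only.

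The 24 h libraries allowed the same measure to be taken in leaves that the 48 h contrast did not use. The estimates of the harvests come from separate libraries, but their calls share the spread estimated over all libraries and are not independent. At 24 h, 586 responses were higher (2.64% of the genes tested) and 897 lower (4.04%) in *R. islandica*, together 6.67%. Of the 722 genes with a higher response at 48 h, 716 (99.2%) had an estimate of the same sign at 24 h and 408 (56.5%) were called. Of the 1115 with a lower response, 1111 (99.6%) had the same sign and 655 (58.7%) were called. Over all tested genes, 80.9% had the same sign at both harvests. No gene was called in opposite directions at the 2 harvests. The median estimates of the 48 h genes were 1.99 and -2.12 at 24 h, against 2.48 and -2.59 at 48 h. For the genes called at 24 h the order was reversed, with medians of 2.49 and -2.61 at 24 h and of 2.28 and -2.47 at 48 h. The 314 higher and 460 lower responses of 48 h without a call at 24 h had medians of 1.32 and -1.40 there, on the same side of 0.

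**Figure D4:**
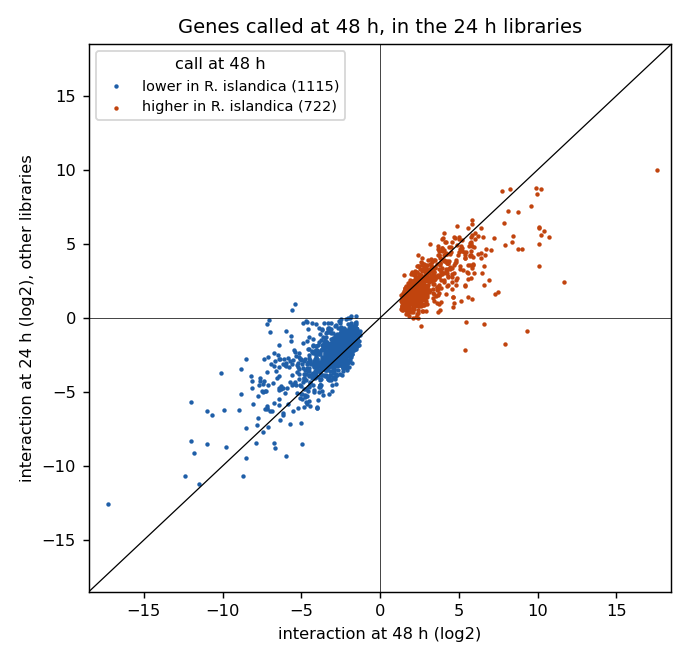
Interaction estimate (log2) at 48 h (horizontal axis) and at 24 h (vertical axis), from separate libraries, for the 722 genes with a higher (red) and the 1115 with a lower (blue) response called at 48 h. All but 6 and 4 genes kept their sign at 24 h, and the diagonal marks equal estimates.

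By class, the share called at 24 h was 91.3% for the 23 and 88.9% for the 36 genes with opposite calls. It was 70.1% for induction and 64.8% for repression in *R. islandica* alone, and 45.4% for repression and 49.0% for induction in *R. stylosa* alone. It was 75% where both species rose and *R. islandica* rose more, and 35.9% where *R. stylosa* rose more. At 24 h, 10.6% of the tested genes were upregulated and 10.1% downregulated in *R. islandica*, and 7.22% and 4.69% in *R. stylosa*. Of the 318 genes induced in *R. islandica* alone at 48 h, 254 were also upregulated there at 24 h, and of the 534 repressed, 419 were downregulated. In *R. stylosa*, 214 of its 294 induced and 125 of its 185 repressed genes were called in that direction at 24 h. All these shares are descriptions, since the classes also differ in the size of the estimates.

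Whether the interaction itself changed from the first to the second day was tested as a difference of both. With edgeR 0 genes passed at the log2 threshold of 1 (0% of the genes tested), with 360 at an unadjusted p under 0.05 in that test. DESeq2 called 1. Against no change, edgeR called 1 gene and DESeq2 189, and edgeR with the replicate number as a block called 21. The gene called by edgeR without the block, of 1215 bases and alone in its orthogroup, had an interaction of -0.35 at 24 h and -1.62 at 48 h (difference -1.27, SE 0.16, adjusted p = 0.00206 in edgeR against no change). In submerged *R. islandica* it was at 60.8, 66.7 and 70.0 CPM after 24 h and at 25.5, 23.6 and 28.3 CPM after 48 h. Its *R. islandica* controls were at 73.9 to 78.6 CPM after 24 h and 69.8 to 71.9 CPM after 48 h, and all *R. stylosa* libraries lay between 42.4 and 52.2 CPM. The difference of this gene thus lay in the submerged *R. islandica* leaves.

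The level in air was compared with 24 h controls, which no 48 h contrast uses. In these, 17.3% of the tested genes were higher and 14.0% lower in *R. islandica*. Among the 722 genes with a higher response at 48 h, 79 (10.9%) were higher and 281 (38.9%) lower in *R. islandica* controls, and the median difference was -1.01. After 24 h of submergence, 18.6% of all tested genes were higher and 17.7% lower in *R. islandica*. Of the 722, 302 (41.8%) were then higher and 68 (9.42%) lower, with a median of 1.11. The median of the genes with a higher response was thus below *R. stylosa* in air and above it under water. An interaction is the species difference under water minus that in air, so choosing large ones favours such a pattern, also in other libraries. Genes that lay below in air and also above under water were not counted. Among the 1115 genes with a lower response, 337 (30.2%) were higher and 156 (14.0%) lower in *R. islandica* controls, with a median of 0.48. Under water, 95 (8.52%) were higher and 602 (54.0%) lower, with a median of -1.66. The shift in air was therefore smaller on this side than the gap under water. These species differences include any unequal assignment of *R. stylosa* reads, whose part was not tested.

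**Figure D5:**
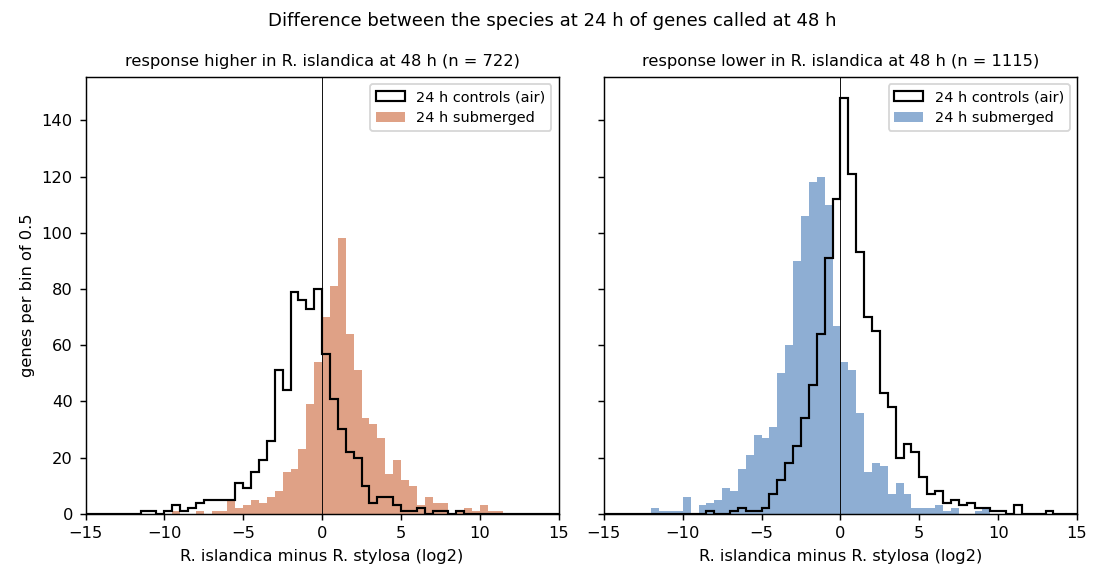
Difference of *R. islandica* minus *R. stylosa* (log2) at 24 h in controls (black outline) and submerged leaves (filled), as the number of genes per bin of 0.5, for the genes with a higher (left) or lower (right) response in *R. islandica* called at 48 h. The medians are -1.01 in air and 1.11 under water on the left, and 0.48 and -1.66 on the right.

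The level in air differed among the classes. Of the 318 genes induced in *R. islandica* alone, 143 (45.0%) were lower and 21 (6.60%) higher in *R. islandica* 24 h controls. Of the 294 induced in *R. stylosa* alone, 133 (45.2%) were higher and 22 (7.48%) lower in *R. islandica*. The species that rose was thus often the one that started lower, which the choice of genes by their interaction favours. The 39 genes that rose more steeply in *R. stylosa* were higher in *R. islandica* air in 29 cases and lower in none. By contrast, the 534 genes repressed in *R. islandica* alone were higher in its controls in 118 cases (22.1%) and lower in 98 (18.4%). Both shares were above those of all tested genes, 17.3% and 14.0%. Under water, 336 of the 534 (62.9%) were lower in *R. islandica*. The species lay closer together under water than in air for 47.0% of the 722 and 36.2% of the 1115 genes, against 42.9% of all tested genes.

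Interactions were called over the whole range of expression. Genes were split by mean level into 5 equal bins, in which the share called was, from the lowest to the highest bin, 6.48%, 11.2%, 9.18%, 6.73% and 7.69%. In the highest bin the higher and lower responses were equally frequent (3.89% and 3.80%), and in the lowest they were 1.80% and 4.68%. With 5 such bins of coding length the share was 7.19% among the shortest genes, 9.44% in the middle bin and 6.73% among the longest. Genes that the deposited tables mark as members of a universal orthogroup were called in 8.69% of cases and other genes in 5%. In the second bin of level, where both kinds were frequent, these shares were 12.1% and 5.29%. The order was the other way in the highest bins, which held few other genes: 6.66% against 10% of 90 genes in the fourth, and 7.66% against 10.9% of 46 genes in the fifth. Genes with values that were not whole were called about as often (8.33%) as those with whole values only (8.25%).

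Most groups of related genes held no called gene. Of 1699 orthogroups with at least 2 tested genes, 302 had a called gene, and in 248 of these it was a single one. Of the genes in these orthogroups 9.14% were called, near the 8.27% of all tested genes. In 54 orthogroups 2 or more genes were called, in 39 all in one direction and in 15 in both. Among 1211 orthogroups with exactly 2 tested genes, neither was called in 1024, one in 159, both in the same direction in 23 and both in opposite directions in 5. With counts summed per orthogroup, 603 of 19933 sums were higher and 1031 lower. The sum was called in the same direction for 173 of the 368 called genes with a tested relative in their orthogroup (47.0%). For called genes with none it was called in 1432 of 1469 cases (97.5%). There the sum holds the gene's own counts and at most those of relatives below the filter, so this share was nearly fixed in advance. For a called gene with relatives, the response of the orthogroup as a whole was therefore often not called.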

How the data were processed

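Polyadenylated RNA of young leaves was sequenced as paired ends in 24 libraries, 3 for each species, treatment and harvest. The authors checked the reads with FastQC 0.12.0, assigned every library, also of *R. stylosa*, to *R. islandica* transcripts (annotated coding sequences, all with lengths that are multiples of 3) with kallisto, and deposited the expected counts (estimated counts) per transcript without normalization, one column a library. Of the deposited values, 11.8% were not whole, with no tolerance. Column names carry a 1 or 2, read as 24 and 48 h, and a Roman numeral, read as the replicate. The 32703 transcripts were summed to genes, as the study describes, and the sums were rounded.

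Low counts were removed with filterByExpr of edgeR 4.0.16 (R 4.3.3), libraries were scaled by TMM, 8 groups were fitted by quasi-likelihood, and glmTreat was run at a log2 threshold of 1 and a limit of 0.05 on Benjamini-Hochberg adjusted p-values. The script was tested on simulated data. Each SE is the size of the log2 estimate divided by the square root of F from the quasi-likelihood test against 0. Adjusted p-values beside it are of glmTreat at the threshold, unless given as against no change. CPM are scaled by the TMM library sizes, and class levels are medians of log2 CPM with a prior count of 2. The common biological coefficient of variation over the 24 libraries was 0.152. Nothing in the labels says that the 3 libraries of an *R. islandica* group came from separate cultures, so p-values measure the spread between these libraries.

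The genes, lists and tests were chosen with earlier results of these data known. Identifiers are given for 4 genes: those with the largest and the lowest interaction among genes with opposite calls and among the others, out of 344 higher and 477 lower responses called in every leave-one-out fit and averaging 0.5 CPM or more in each 48 h group. The genes described by coding length are the largest estimates of their class by the same rule or, for those with many counts, 0 counts or a change between harvests, were chosen after their values were seen. Alternatives were DESeq2 1.42.0, its size factors, TMM within species, other filters, thresholds and sets of libraries, the replicate number as a block, thinned counts, orthogroup sums, transcripts, and each 48 h library left out.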

Additional observations from a re-analysis of the deposited data

Results flagged for a closer look

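A test of the difference itself put the responses of 722 genes above and of 1115 below in *R. islandica* against *R. stylosa* at 48 h. The named genes are among them, each with a difference between the species in edgeR's interaction test. They are Roisl.0189s0126 at 5.68 and Roisl.0034s0171 at -7.24, with opposite calls in the species, Roisl.0046s1242 at 6.74 and Roisl.0021s0238 at -8.72. These 4 genes were picked for their extreme interactions in the 48 h libraries. That their control and submerged 48 h libraries overlapped in neither species is therefore no further support. For Roisl.0021s0238 in *R. stylosa* the nearest values were 1.25 CPM in air and 1.36 CPM under water. The share of all tested genes without overlap was not counted, here or for other genes described so. Each of the 4 interactions had the same sign in the 24 h libraries. Groups of 3 are too small for a check of single libraries against the others of their group.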

How the results depend on the processing

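The interactions of the 4 named genes kept their direction and stayed called under the alternatives run. For the fits with a 48 h library left out, staying called was a condition of their choice and is no further support. Calls shared with an alternative had the same direction in each one compared gene by gene, which leaves out orthogroup sums and transcripts. The named genes' effects within a species were not compared across alternatives. With DESeq2, 13 and 17 genes had opposite calls (*R. islandica* up or down), 31 rose and 56 fell more steeply in *R. islandica*, 220 lower responses were higher in *R. islandica* controls, 436 lower responses were called at 24 h, and the interaction changed between harvests in 1 gene at the threshold and 189 against no change. With the threshold applied after the test, 1854 higher and 2483 lower responses were called, 83 and 147 opposite, 244 and 389 steeper, 1096 and 1578 called at 24 h, 695 and 799 with the level in air apart, 3930 orthogroup sums, 97.49% with the same sign at 24 h, and 1 change between harvests. With no threshold these were 4179, 4216, 547, 538, 1005, 1080, 2662, 2851, 1951, 1789, 7871, 95.93% and 1. Orthogroup sums gave 3 changes against no change. Leaving out single 48 h libraries gave 601 to 750 higher and 940 to 1142 lower responses, 1 to 4 changes against no change (4 without *R. stylosa* submerged replicate 2, 2 without its replicate 3, *R. stylosa* control replicate 3 or *R. islandica* submerged replicate 1) and 99.16 to 99.76% with the same sign. All other counts stayed within 1.5 times. The 48 h libraries alone give no 24 h value. Why these values moved was not tested.

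Replicate numbers were checked as pairs of control and submerged libraries at 48 h, by the correlation of their deviations from the group means. It was -0.0239 to 0.094 in *R. islandica* and 0.0385 to 0.126 in *R. stylosa*, where each library correlated best with its own number. Neither the labels nor these values, low in most pairs, settle that the numbers mark pairs, although *R. stylosa* was propagated anew for each replicate, so the fit without the block was kept. With the replicate block, 805 higher and 1186 lower responses were called and 21 changes against no change, and no other count moved by over 1.5 times.

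Low counts limit the 89 called genes with a group at 0. They also limit other called genes, since 1148 of the 1837 averaged 0.5 CPM or more in every 48 h group. In at least 1 leave-one-out fit, each with 1 library fewer, 596 of the calls were lost.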
